A study of Homo sapiens with 2 samples.

Results

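MYC, MYCN, MYCL, MAX, MXD1, MXD3, MXD4, MXI1, MNT and MLX form the MYC, MAX and MXD network of transcription factors, and their transcripts were followed here after knockdown of CDX2. A feature, 1 spot on the array, belonged to the network if the platform annotation gave it 1 of these 10 gene symbols. No measured value enters this rule, although the 10 genes were chosen with earlier results of these data known. Of 45015 features on the array 33 qualified, and 30 of them were measured, that is, had a ratio other than exactly 0 on both arrays. The other 3 were exactly 0 on both arrays and belonged to MYCL, MXD1 and MXD3, 1 each. All 10 genes had a measured feature, among 12842 genes that did. RNA came from COLO320, a human colorectal cancer cell line that carries amplified MYC. Cells were transfected at 100 nM with siRNA 6 or siRNA 8, both directed at the intestinal homeobox factor CDX2, or with a non-targeting siRNA, and were collected 24 h after the medium had been renewed. Each of 2 arrays, 1 for each siRNA, paired RNA from the knockdown in Cy5 with non-targeting control RNA in Cy3. A log2 ratio above 0 therefore means a higher level with CDX2 siRNA, and the 2 siRNAs served as the replicates (n = 2 throughout).

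MYC, MYCN and MYCL are activators that bind DNA only as partners of MAX, through a basic helix-loop-helix leucine zipper, at the E-box CACGTG. MXD1, MXI1, MXD3, MXD4 and MNT compete for MAX, occupy the same E-boxes and recruit the SIN3 corepressor with its histone deacetylases. MLX is a second hub, which pairs with the glucose-sensing factors MLXIP (MondoA) and MLXIPL (ChREBP) and with some MXD proteins. In the intestinal crypt MYC is known as a target of Wnt/beta-catenin signalling that drives growth and ribosome production, whereas MXD proteins are linked to exit from the cell cycle.

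The ratios compare the same cell line in both channels, so amplification of MYC cancels from them, and neither absolute levels nor marker genes of the cell line can be read from them. In such bulk RNA, fewer cells that express a gene and less RNA per cell cannot be told apart. CDX2 stood at 37.3% of control (log2 -1.42 ± 0.0192, SD, n = 2; limma adjusted p = 0.00164), with values of -1.44 for siRNA 6 and -1.41 for siRNA 8. Over all genes the median was -0.13 (log2). No array had its dyes swapped and the spread of the control RNA was not measured, so p-values describe the spread between these 2 arrays, and whether they came from separate cultures is not stated. The number of arrays limits the precision.

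Promoter sequence is shown first for both genes of the network that passed the test, MYCN and MYCL, and then for stretches of other members that hold a recognised motif. RefSeq windows (GRCh38.p14, 250 bases before to 50 after a start site) were matched to 9 of the 10 genes, MYC being the one without. They gave 12 windows and are printed 5′ to 3′ on the strand of the gene. Capitals mark the E-box CACGTG, the letters that MYC-MAX and MXD-MAX dimers read, and TTTATG, letters typical of CDX sites, searched on both strands. No genome build is named for the array.
MYCN, chr2:15940300-15940599, + strand: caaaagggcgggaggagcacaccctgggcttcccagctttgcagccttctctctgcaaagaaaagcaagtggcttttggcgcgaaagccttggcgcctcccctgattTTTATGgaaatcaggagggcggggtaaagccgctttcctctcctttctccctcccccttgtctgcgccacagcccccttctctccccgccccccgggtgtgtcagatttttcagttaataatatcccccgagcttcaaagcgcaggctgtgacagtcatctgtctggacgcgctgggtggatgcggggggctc
MYCL, chr1:39901868-39902167, - strand: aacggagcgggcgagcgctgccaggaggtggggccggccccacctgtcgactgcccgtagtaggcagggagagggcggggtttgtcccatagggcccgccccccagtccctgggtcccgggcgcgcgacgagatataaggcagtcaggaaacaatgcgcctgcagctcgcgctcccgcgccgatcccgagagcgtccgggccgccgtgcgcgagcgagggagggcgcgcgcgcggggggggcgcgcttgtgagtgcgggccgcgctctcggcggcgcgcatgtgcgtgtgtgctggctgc
MXI1, chr10:110207355-110207400, + strand: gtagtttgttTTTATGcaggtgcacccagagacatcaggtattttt
MXD4, chr4:2262312-2262359, - strand: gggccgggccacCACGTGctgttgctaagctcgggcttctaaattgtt
MNT, chr17:2401218-2401283, - strand: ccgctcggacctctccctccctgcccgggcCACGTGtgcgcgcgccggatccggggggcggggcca
MLX, chr17:42567020-42567085, + strand: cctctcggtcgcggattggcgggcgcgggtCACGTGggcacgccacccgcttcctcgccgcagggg

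In the MYCN window TTTATG began 143 bases before the start site, and MYCL held neither motif. MXI1 had TTTATG 240 bases before one of its start sites. E-boxes began 238 bases before the start in MXD4, 193 bases before in MNT and 50 bases before in MLX. Over all 35116 promoter windows of this length, 7.26% held CACGTG and 10.6% held TTTATG, against 3 and 2 of the 12 windows of the network. Of both genes with TTTATG, MYCN was higher with CDX2 siRNA and MXI1 stood close to control. A match of letters is a description of the window and not a binding site.

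The first comparison asks how the activators stood with CDX2 siRNA against control. MYC, the amplified member, stood near control on average but its 12 features fell into 3 levels. Averaged over features, siRNA 6 gave a log2 ratio of -0.047 and siRNA 8 one of 0.15, together 0.052 ± 0.140 (SD, n = 2), or 104% of control. MYC did not pass the test (limma adjusted p = 0.703), and the 95% interval of its log2 ratio ran from -0.23 to 0.33. The signs of the arrays differed, and the interval leaves room for changes of that size in either direction.

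Of the 12 MYC features, 10 lay between -0.11 and 0.091 with siRNA 6 (median -0.0038) and between 0.042 and 0.27 with siRNA 8 (median 0.16). These 10 share the accession NM_002467, and in 9 of them the value with siRNA 8 was above that with siRNA 6. Features of 1 accession may be repeat spots of 1 probe, which the annotation used here does not tell, so the 10 may not be separate measurements of MYC. They are described without a joint test, since they were set apart after their values were seen, and none of them passed on its own (limma adjusted p from 0.264 to 0.891). The spread over the 10 was 0.0584 with siRNA 6 and 0.0712 with siRNA 8 (SD, log2). Over all 11 measured features of NM_002467, feature 4922 included, the SD was 0.390 and 0.368. In accessions with 10 or more measured features, of which there were 172, the median SD was 0.0739 and 0.0791, and 28 of them had a larger SD than NM_002467 with siRNA 6.

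Both remaining MYC features stood far from these 10 and on opposite sides of control. Feature 4922, of the same accession NM_002467, had log2 ratios of 1.28 with siRNA 6 and 1.35 with siRNA 8, a mean of 1.31 ± 0.0470 (SD, n = 2), or 2.49-fold higher (limma adjusted p = 0.00295 among features). Feature 15117, annotated to M13930, had -1.86 and -1.02, a mean of -1.44 ± 0.597 (SD, n = 2), or 2.71-fold lower (adjusted p = 0.0215). The same gene symbol thus held 1 feature past the threshold in each direction, and which transcripts these features read was not tested. Averaged by accession and not by feature, the MYC gene value became -0.63 (limma adjusted p = 0.0387), because the M13930 feature then weighs as much as the other 11 together. Without feature 4922 it was -0.063 (adjusted p = 0.653), and without feature 15117 it was 0.19 (adjusted p = 0.189).

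MYCN, the paralogue best known from neuroblastoma and other neuroendocrine tumours, rose on both arrays. Values of 0.95 with siRNA 6 and 1.07 with siRNA 8 (log2 ratio) gave a mean of 1.01 ± 0.0833 (SD, n = 2), or 2.01-fold higher (limma adjusted p = 0.00345). Both features of MYCN, which share an accession, were above control on both arrays. Feature 16910 had 1.49 and 1.60 (2.92-fold, adjusted p = 0.00251 among features), and feature 30491 had 0.41 and 0.53 (1.39-fold, adjusted p = 0.0311). The features differed by 1.07 in their mean, far more than the arrays differed within either feature.

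MYCL, the paralogue first found amplified in small cell lung cancer, had the highest ratio of the network. Its 1 measured feature, 29374, gave a log2 ratio of 2.30 with siRNA 6 and 2.15 with siRNA 8, a mean of 2.22 ± 0.106 (SD, n = 2), or 4.67-fold higher (limma adjusted p = 0.00101). The other feature of MYCL, 11309, carries the same accession and was exactly 0 on both arrays. With exact zeros kept as ratios of 0 the gene stood at 1.11 (adjusted p = 0.0875), and MYCN at the same 1.01 (adjusted p = 0.107). That setting adds 5002 genes without any spread to the fit, and 0 of its 18334 genes passed in limma, with 5218 at an unadjusted p under 0.05. Among all genes tested MYCL lay at percentile 96.7 and MYCN at percentile 94.2 of the mean log2 ratio, so ratios of this size were not rare on these arrays.

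**Figure D1:**
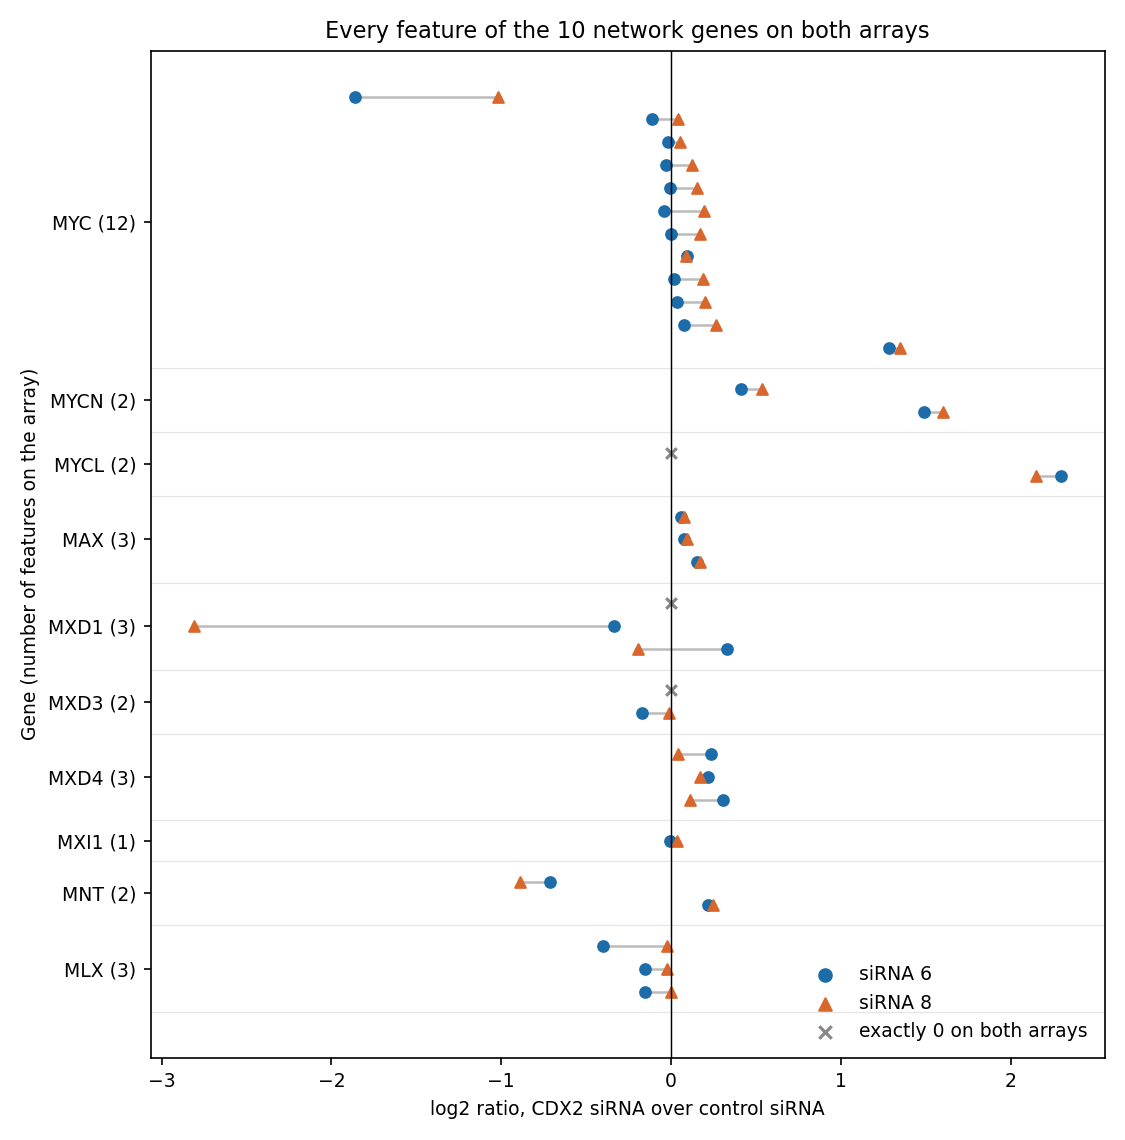
Log2 ratio of CDX2 siRNA over control (horizontal axis) for each of the 33 features of the 10 network genes, with the number of features per gene in parentheses. Circles are the siRNA 6 array, triangles the siRNA 8 array, a grey line joins both values of a feature, and crosses are the 3 features at exactly 0 on both arrays. The 10 central MYC features cluster near 0 with 1 feature at each side, all measured MYCN and MYCL values lie above 0, and 1 MXD1 feature reaches -2.81 with siRNA 8 only.

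The hubs of the network did not pass the test. MAX, the obligate partner, had 3 measured features of 3 different accessions, and all were slightly above control on both arrays, between 0.060 and 0.17 (log2 ratio). The gene stood at 0.095 with siRNA 6 and 0.11 with siRNA 8, a mean of 0.10 ± 0.0119 (SD, n = 2), with a 95% interval from -0.14 to 0.35 (limma adjusted p = 0.392). The arrays lay closer together for MAX than for any other member. MLX, the hub of the parallel branch, stood at -0.24 with siRNA 6 and -0.016 with siRNA 8, a mean of -0.13 ± 0.155 (SD, n = 2; 95% interval -0.41 to 0.16; adjusted p = 0.385). Its 3 features, of 1 accession, ran from -0.40 to -0.15 with siRNA 6 and from -0.025 to 0.0013 with siRNA 8, so all 3 were lower with siRNA 6. They may be repeat spots of 1 probe and are not replicates, and the difference between the arrays was not tested. With each array centred on its median MLX stood at 0.0018.

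Among the repressors 0 of 5 genes passed, and their values ran from near control to MXD1 with its wide gap between siRNAs. MXD1, a partner of MAX that rises as cells differentiate, stood at -0.0038 with siRNA 6 and -1.501 with siRNA 8, a mean of -0.75 ± 1.06 (SD, n = 2; limma adjusted p = 0.205). The siRNA 6 value was next to control and the siRNA 8 value far below it, and the 95% interval, from -1.85 to 0.34, spans 0. MXD1 feature 13929 had -0.34 and -2.81, and feature 22747, of the same accession, had 0.33 and -0.19, so both features were lower with siRNA 8. Its other feature was exactly 0 on both arrays. The difference between siRNAs, -1.497 (log2, siRNA 8 minus siRNA 6), had no replicate and was not tested. It was the widest of the 10 members.

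MNT, a broadly expressed repressor that pairs with MAX and MLX, had features on opposite sides of control. Feature 22620, annotated to AF318360, had log2 ratios of -0.71 with siRNA 6 and -0.89 with siRNA 8 (1.74-fold lower, limma adjusted p = 0.0103 among features). Feature 17470, annotated to NM_020310, had 0.22 and 0.25 (1.18-fold higher, adjusted p = 0.124). The gene mean, -0.28 ± 0.0530 (SD, n = 2), did not pass (adjusted p = 0.0726, unadjusted p = 0.0337), and with RefSeq mRNA features alone it was 0.23 (adjusted p = 0.103). The direction of MNT thus depended on which feature was read.

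MXD4 lay slightly above control, with 3 features of 1 accession between 0.044 and 0.30. The gene had 0.25 with siRNA 6 and 0.11 with siRNA 8 (log2 ratio), a mean of 0.18 ± 0.103 (SD, n = 2; limma adjusted p = 0.204). MXD3, which is linked to proliferating cells unlike the other MXD proteins, had 1 measured feature at -0.17 and -0.011 (adjusted p = 0.497), and its second feature was exactly 0 on both arrays. With each array centred on its median MXD3 stood at 0.038, on the other side of control. MXI1, a repressor also known as MXD2, had 1 feature at -0.0081 and 0.036, the value closest to control in the network (adjusted p = 0.912; 95% interval -0.23 to 0.26).

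Over the network 2 of 10 genes passed higher, MYCN and MYCL, and 0 lower (limma, adjusted over all genes), with 1 gene lower at an unadjusted p under 0.05, MNT. Of all 12842 genes, 12.1% passed higher and 28.6% passed lower. Of the 30 measured features 4 passed higher and 2 lower, where 11.5% and 25.1% of all 27230 measured features did. The 4 higher features belonged to MYC, MYCN and MYCL, and the lower ones to MYC and MNT. At least 1.5-fold on both arrays were the same 2 genes, and 3 features higher and 2 lower, against 7.8% of all genes higher and 18.4% lower, and 8.15% of all features higher and 19.3% lower. By role, 4 of 15 activator features rose and 1 fell, 0 of 6 hub features passed, and 0 of 9 repressor features rose and 1 fell. With so few members these shares are counts, and no difference from the rest of the array was tested.

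The second comparison asks whether the 2 siRNAs gave the same values for the network, and it rests on 1 array for each. The sign was the same for 8 of 10 member genes, the exceptions being MYC and MXI1, both near control, and for 85.2% of all genes. Whether both arrays received the same control RNA is not stated, so agreement in sign is given as a description. The median absolute difference between siRNAs was 0.147 (log2) over the 10 genes and 0.152 over all genes. MAX differed by 0.017, MXI1 by 0.044 and MYCN by 0.12, whereas MYC differed by 0.20, MLX by 0.22 and MXD1 by -1.497 (siRNA 8 minus siRNA 6). The median of the 10 genes was -0.0060 with siRNA 6 and 0.072 with siRNA 8, and that of all genes -0.14 and -0.12.

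**Figure D2:**
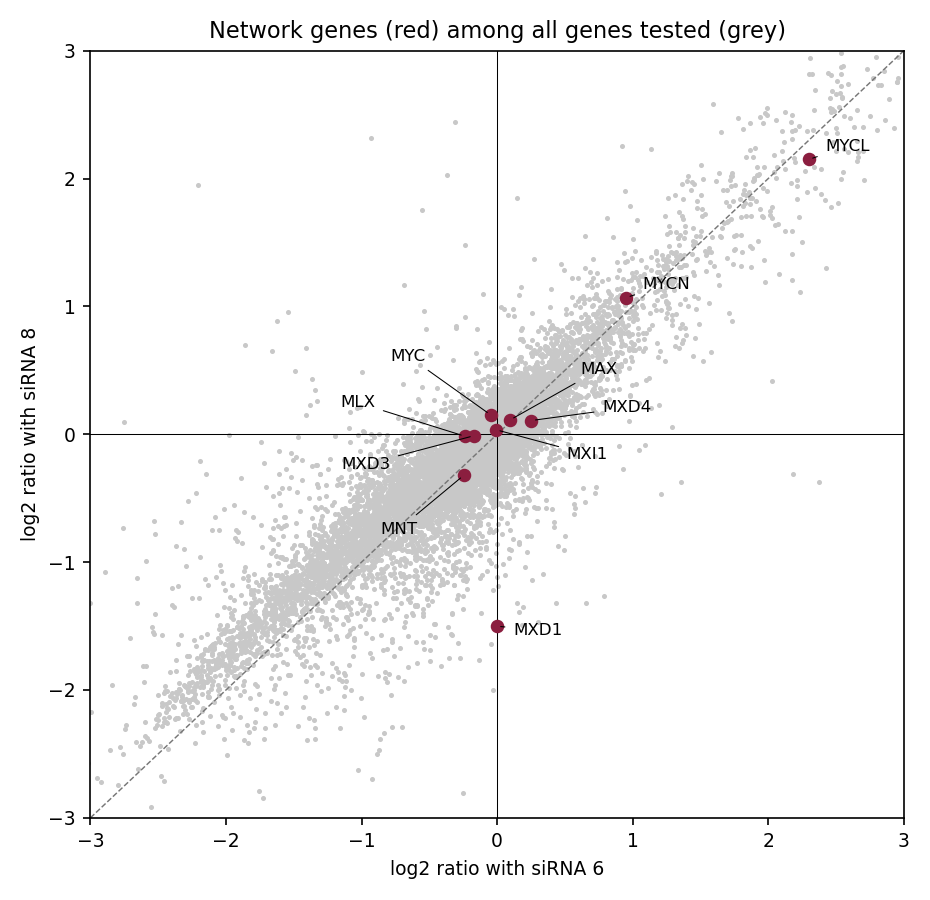
Mean log2 ratio of each gene with siRNA 6 (horizontal axis) and siRNA 8 (vertical axis). Red points are the 10 network genes, grey points are all genes tested, the dashed line marks equal values, and 364 genes beyond 3 on either axis are not drawn. MYCL and MYCN lie near the line at the upper right, MXD1 lies below it at -0.0038 with siRNA 6 and -1.501 with siRNA 8, and the other 7 are near the centre.

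Features of 1 gene disagreed within the network. Of the 7 members with 2 or more measured features, 4 had features that differed by more than 1 in their mean log2 ratio, and across the array this held for 30.8% of 4933 such genes. The distance from the lowest to the highest feature was 2.75 in MYC, 1.64 in MXD1, 1.07 in MYCN and 1.03 in MNT. MAX (0.093), MXD4 (0.066) and MLX (0.13) had features close to each other. The range grows with the number of features, of which MYC had 12. MYCL, MXD3 and MXI1 rested on 1 measured feature each, so their values have no second feature to be set against.

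MLX partners and MGA, a MAX partner with a T-box domain, also varied by feature. MLXIP, the glucose sensor MondoA, was 1.72-fold lower (log2 -0.79 ± 0.111, SD, n = 2; limma adjusted p = 0.00680), with features at -1.97, -0.28 and -0.11. MGA was 2.25-fold higher (log2 1.17 ± 0.0197; adjusted p = 0.00226), with 1 feature at 3.31 and the other measured ones at 0.18 and 0.021. MLXIPL, the hepatic glucose sensor ChREBP, stood at 0.035 (adjusted p = 0.772), with features at 0.49 and -0.42. Of all 7 further network genes in this list, which also holds MYCBP, MYCBP2, USF1 and USF2, 1 passed higher and 1 lower. Of all genes tested 12.1% passed higher and 28.6% lower, and the list was not tested against them.

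Genes that act on or with the network were then counted in the same limma fit, where genes said to rise or fall had an adjusted p under 0.05. Each count is to be read against the 12.1% of all genes that passed higher and the 28.6% that passed lower, and no list was tested against them. Among 14 corepressor genes of MXD and MNT proteins 0 rose and 3 fell, with a median log2 ratio of -0.047 against -0.13 for all genes. The histone-binding subunits RBBP4 (1.76-fold lower) and RBBP7 (1.69-fold lower) and the glycosyltransferase OGT (1.42-fold lower) fell. Their features ran from -1.78 to -0.072 in RBBP4, from -1.09 to -0.43 in RBBP7 and from -1.15 to 0.028 in OGT. Of the SIN3 scaffolds that MXD proteins bind, SIN3A stood at 0.21 (limma adjusted p = 0.135) and SIN3B at -0.24 (limma adjusted p = 0.0968), and neither passed. Of 16 MYC coactivators 0 rose and 3 fell (median -0.10), led by the acetyltransferase EP300 (2.52-fold lower), the helicase RUVBL1 (1.61-fold lower) and EP400 (1.43-fold lower). The 11 EP300 features ran from -2.02 to 0.088, and the value was lower with siRNA 8 (-1.75) than with siRNA 6 (-0.92). The 3 features of RUVBL1 lay at -2.33, -0.17 and 0.44, and those of EP400 at -1.40, -0.20 and 0.058, so that 1 feature carries the value of each gene. Of 18 genes of MYC protein turnover 0 rose and 5 fell (median -0.15), among them USP28, which removes ubiquitin from MYC (4.17-fold lower, 1 feature), and the ubiquitin ligase subunits BTRC (1.71-fold lower) and FBXL14 (1.74-fold lower, 1 feature). BTRC had features at -1.54 and -0.010. MAPK3, the kinase ERK1, was 1.47-fold lower with all 10 features below control, from -0.80 to -0.37.

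Regulators of MYC transcription gave 4 lower and 0 higher of 15 tested (12.1% and 28.6% of all genes passed higher and lower), with a median of -0.24. The Mediator subunit MED12 was 2.66-fold lower on its 1 feature, and CNBP, which binds an element of the MYC promoter, was 1.54-fold lower, with features at -2.05, 0.055 and 0.12. STAT3, a cytokine-activated factor, was 1.61-fold lower, with 12 measured features from -1.89 to 1.01, and LEF1, a partner of beta-catenin, 1.29-fold lower (adjusted p of 0.0457 and 0.0440 by limma). CTNNB1, the beta-catenin gene, stood at 0.11 (limma adjusted p = 0.413). Of 17 listed neighbours of MYC on 8q24, 12 were on the array and 8 could be tested. Among those 8, 1 rose and 2 fell (median 0.056). PVT1, the noncoding gene next to MYC that is often amplified with it, stood at 0.034 with siRNA 6 and 0.081 with siRNA 8 (adjusted p = 0.632). CCAT1, a noncoding RNA of colon cancers, was 4.88-fold lower and TRIB1, a pseudokinase, was 1.77-fold higher, each on 1 measured feature of 3. ASAP1 was 1.39-fold lower, with features at -0.99, -0.46 and 0.015.

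Targets of the network moved in both directions. Of 48 MYC-activated targets 1 rose and 7 fell, and 40 did not pass, with a median of -0.081, where 12.1% of all genes passed higher and 28.6% lower. PES1, a ribosome biogenesis factor, was 2.14-fold lower, although its features stood at -2.10 and -0.10. TFAP4 was 1.64-fold lower on 1 feature, and RCC1 1.49-fold lower with features at -0.89 and -0.27. ODC1, the ornithine decarboxylase and a classical E-box target, was 1.44-fold lower on 1 feature (log2 -0.53 ± 0.0924, SD, n = 2, limma adjusted p = 0.0175). NCL at -0.054 and NPM1 at 0.16, nucleolar proteins, did not pass. Of 18 tested MYC-repressed targets, from 24 listed, 6 rose and 4 fell (median 0.16). The CDK inhibitor CDKN1C was 7.31-fold higher on 1 measured feature of 2, the other being exactly 0 on both arrays. CEBPD was 5.26-fold higher on its only feature and GADD45B 4.36-fold higher on 2. CLU was 1.68-fold higher and CDKN1B, another CDK inhibitor, 1.40-fold higher. In the other direction PDGFRB was 3.90-fold lower on 1 feature, and the CDK inhibitor CDKN1A 2.08-fold lower over 10 measured features. NDRG2 was 1.90-fold lower and GADD45A 1.45-fold lower on 1 feature.

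MLX and glucose-response targets gave 2 higher and 4 lower of 12 tested, with a median of -0.14, beside 12.1% and 28.6% of all genes. ARRDC4, an arrestin controlled by MLX dimers, was 4.65-fold lower (log2 -2.31 and -2.13, limma adjusted p = 0.00108, 1 feature). TXNIP, its close relative and a target of the same dimers, had 0.34 and 0.38 on its 1 measured feature of 3. It was among the higher genes (limma adjusted p = 0.0412), so both arrestins moved in opposite directions, each on 1 feature. The insulin-responsive glucose transporter SLC2A4 was 3.58-fold higher, KLF11 1.88-fold lower and ACACA, an enzyme of fatty acid synthesis, 1.42-fold lower. KLF11 had features at -1.72 and -0.095, and ACACA at -1.71, -0.031 and 0.22, so 1 feature carries each gene's value. TXNIP is also 1 of the 6 higher MYC-repressed targets. Counted once each, 10 listed genes rose and 33 fell. All genes leaned the same way, with 1556 of 12842 past the threshold higher and 3669 lower, so the lean is not particular to the lists. With each array centred on its median 17 listed genes rose and 25 fell. The split thus depends on the centring, which shifts all genes of an array alike and is not particular to the lists. The shares of 12.1% and 28.6% hold without centring, and none is given here with it.

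**Figure D3:**
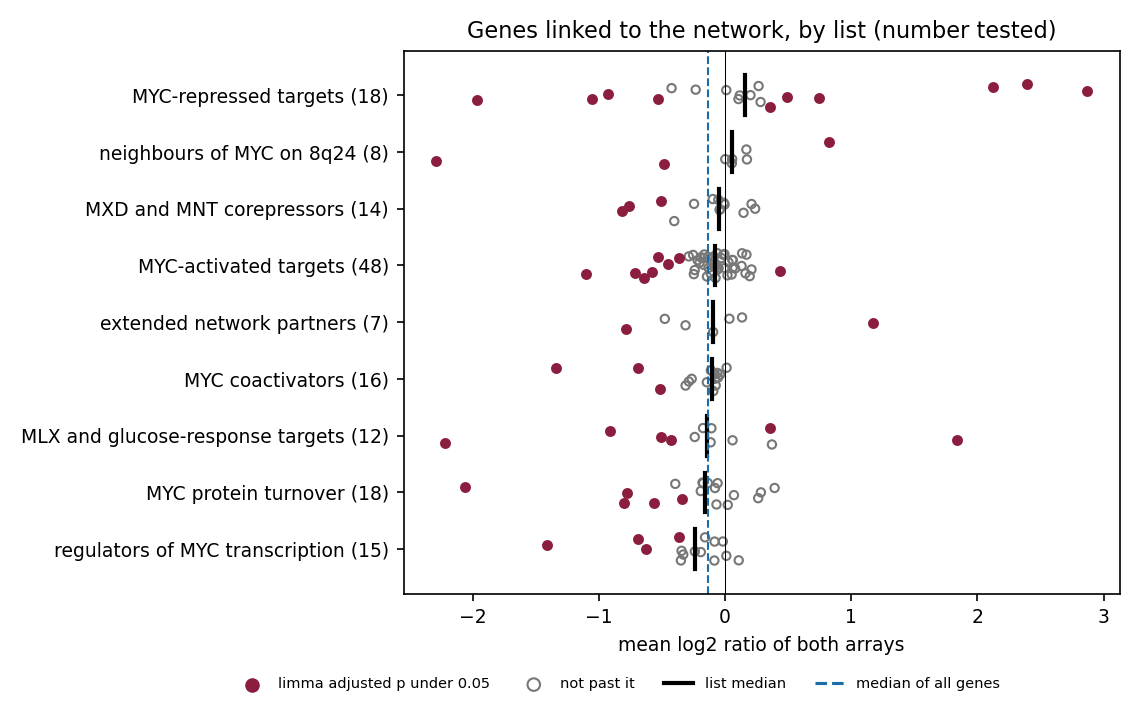
Mean log2 ratio of both arrays (horizontal axis) for the tested genes of 9 lists linked to the network, with the number tested in parentheses. Filled points passed a limma adjusted p of 0.05, open points did not, black bars are list medians and the dashed line is the median of all genes, -0.13. List medians run from -0.24 for regulators of MYC transcription to 0.16 for MYC-repressed targets.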

How the data were processed

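The authors deposited 1 log ratio per feature and array, Cy5 over Cy3. The values were read as log10 since that is the base written by Agilent Feature Extraction 9.5.3, the tool given per the submitters' processing notes. The sources used here state neither the base nor the background and dye corrections. Direction follows the dyes in the labels. Values were converted to log2, and an exact 0 on either array was taken as no measurement, which is an assumption. No intensities are in the table, so signal over background is unknown. A gene is the mean of its measured features with 1 annotated symbol.

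Genes (12842) and measured features (27230) were each fitted in R 4.3.3 by limma 3.58.1 (tables read by data.table at version 1.17.8) with an intercept tested against 0 with eBayes, on 1 residual and 2.87 or 2.53 prior degrees of freedom. A Benjamini-Hochberg adjusted p under 0.05 over the whole fit passed. The code of the fit was tried on simulated ratios with large known changes and 1 common spread. Those settings differ from these data, so the error rate of the fit here was not tested. The members, the 9 lists and the rules were chosen with earlier results of these data known. Named were all members, CDX2, MGA, MLXIP and MLXIPL. From each list up to 4 genes past the threshold were named, those with the largest smaller absolute ratio of both arrays. SIN3A, SIN3B, CTNNB1, PVT1, NCL, NPM1, TXNIP and the remaining MYC-repressed targets past the threshold were added after their values were seen. Alternatives covered exact zeros, centring, quantile normalization, the feature rule, the variance prior, a minimum fold and each array alone. Listed genes with no such mean were not analysed here.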

Additional observations from a re-analysis of the deposited data

How the results depend on the processing

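MYCN and MYCL stayed higher in every alternative run, and passed in each tested one except with exact zeros kept, where 0 members and 0 listed genes in either direction, 0 member features higher and 0 lower passed in limma (0 of 18334 genes, 5218 at an unadjusted p under 0.05). That fit adds 5002 genes at 0 on both arrays, which have no spread. MYC changed direction to -0.63 with the mean of accession means, an alternative chosen after seeing the data, which made it the 1 member gene to pass lower. With each array alone and a fold of 1.5, the count of lower member genes ran from 0 to 1, the latter MXD1 on the siRNA 8 array. Of the listed genes, 17 were higher with centring, which subtracts array medians of -0.136 and -0.119, and 19 were lower against a tested fold of 1.2 and 16 at 1.5-fold on both arrays, in place of 10 and 33. The 1.5-fold setting also drops the test. The feature rule mattered too. With a gene taken as the median of its features 9 listed genes were higher and 24 lower, and with RefSeq mRNA features alone 10 and 26. The cause of these changes was not tested. Each array paired knockdown with control RNA, and the test was of that ratio against 0. No further pairing was possible because the arrays form 1 group of ratios and carry no shared replicate numbers. Signal over background is not known, so features near the detection limit could not be told from others.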
